A study of Mus musculus with 12 samples.

Results

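Eicosanoids are lipid mediators made from arachidonic acid, and 10 genes of their synthesis and sensing were chosen for description in cultured mouse CD8α+-like dendritic cells. The genes were Pla2g4a, Ptgs1, Ptgs2, Ptges, Alox5, Alox5ap, Lta4h, Ltc4s, Ptger2 and Ptger4. A gene was taken as measured where a row of the array table carried its symbol alone, and the brightest such row stood for it. Of the 10, 8 were measured, among 14807 genes with a row of that kind. Ptgs1 and Ptgs2, which encode the cyclooxygenases, had no row with a single symbol and were skipped, so they are not analysed here.

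There were 12 Affymetrix whole-transcript arrays, with 3 in each of 4 groups. All cells came from C57BL/6 mouse bone marrow grown with Flt3 ligand at 100 ng/ml over 10 days, and were sorted as CD24hi CD11blow B220- cells. The groups were wild type (WT) cells left untreated (0 h), WT cells kept for 5 h with dead cells, and the same pair from Clec9a gfp/gfp mice. Clec9a encodes DNGR-1, a receptor of this dendritic cell type for dead cells, and mice homozygous for the gfp allele lack it. The dead cells had been given UVC at 240 mJ/cm2 and then cultured for 24 h, and they were added at a 1:2 ratio. No group had 5 h of culture without dead cells, so the dead cells and the hours in culture cannot be told apart. Whether the 3 samples of a group came from separate animals or cultures is not stated in the labels, and the p-values cover the spread among those samples alone, which may be technical. All values below are linear intensities in arbitrary units. Differences are of log2(intensity + 16), given with the standard error of the limma fit, and adjusted p-values are two-sided and taken over all 23238 rows.

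Cytosolic phospholipase A2 frees arachidonic acid from membranes. The cyclooxygenases and the prostaglandin synthases then turn it into prostaglandins, while 5-lipoxygenase, aided by its activating protein, turns it into leukotriene A4. Leukotriene A4 hydrolase makes leukotriene B4 from that intermediate, and leukotriene C4 synthase makes the cysteinyl leukotriene C4. Prostaglandin E2 acts on dendritic cells mainly through the receptors EP2 and EP4, which raise cyclic AMP and are known for effects on maturation, migration and cytokine output.

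Cells kept with dead cells had lower values of Pla2g4a (cytosolic phospholipase A2) and of Alox5, Alox5ap and Lta4h of leukotriene synthesis, while Ptger4, the EP4 receptor gene, was higher. In WT cells 1 of the 8 measured genes rose (Ptger4) and 6 fell at an adjusted p under 0.05 by limma, beside 14.5% of all rows that rose and 31% that fell. In Clec9a gfp/gfp cells 1 rose and 5 fell, beside 16.6% and 32.1% of all rows. Averaged over the genotypes, 1 rose and 6 fell, beside 22.1% and 34.6% of rows. Those shares include rows without a single symbol. With 1 row per gene a larger share was called in either direction, at 8695 of 14807 genes in WT, 9397 in Clec9a gfp/gfp cells and 10417 averaged. The median difference of the 8 genes was -0.93 in WT and -0.69 in Clec9a gfp/gfp cells, against -0.045 and -0.050 over all rows. After quantile normalization these medians were -0.61 and -0.35 for the 8 genes and 0.11 and 0.098 over all rows, and after a shift of all arrays to one median they were -0.71 and -0.45 against 0.17 and 0.19. The falls of Ltc4s and Ptger2 depended on how the arrays were scaled and turned positive in the average under quantile normalization, whereas Pla2g4a, Alox5, Alox5ap, Lta4h and Ptger4 kept direction and call under every scaling tried. In each genotype 1 gene had all 3 arrays with dead cells above the 3 untreated ones and 6 had them all below. Among all rows the shares were 20.7% above and 34.2% below in WT, and 21.8% and 34.2% in Clec9a gfp/gfp cells.

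The arrays differed as a whole between the treatments. Median intensities ran from 93.6 to 101 untreated (6 arrays) and from 77.9 to 85.9 with dead cells (6 arrays), and upper quartiles from 396 to 437 and from 231 to 259. Shifting all arrays to one median moved the median difference of all rows, averaged over genotypes, by 0.23, and quantile normalization moved it by 0.14. As deposited, 5128 rows rose and 8029 fell in the averaged response. These counts became 7971 and 6256 after quantile normalization, and 9250 and 6828 after the shift to one median. The targeted gene matched its labels, with Clec9a at 2625 ± 38.3 (SD, n = 3) on untreated WT arrays against 2.68 ± 2.32 (SD, n = 3) on untreated arrays of the gfp/gfp genotype.

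**Figure D1:**
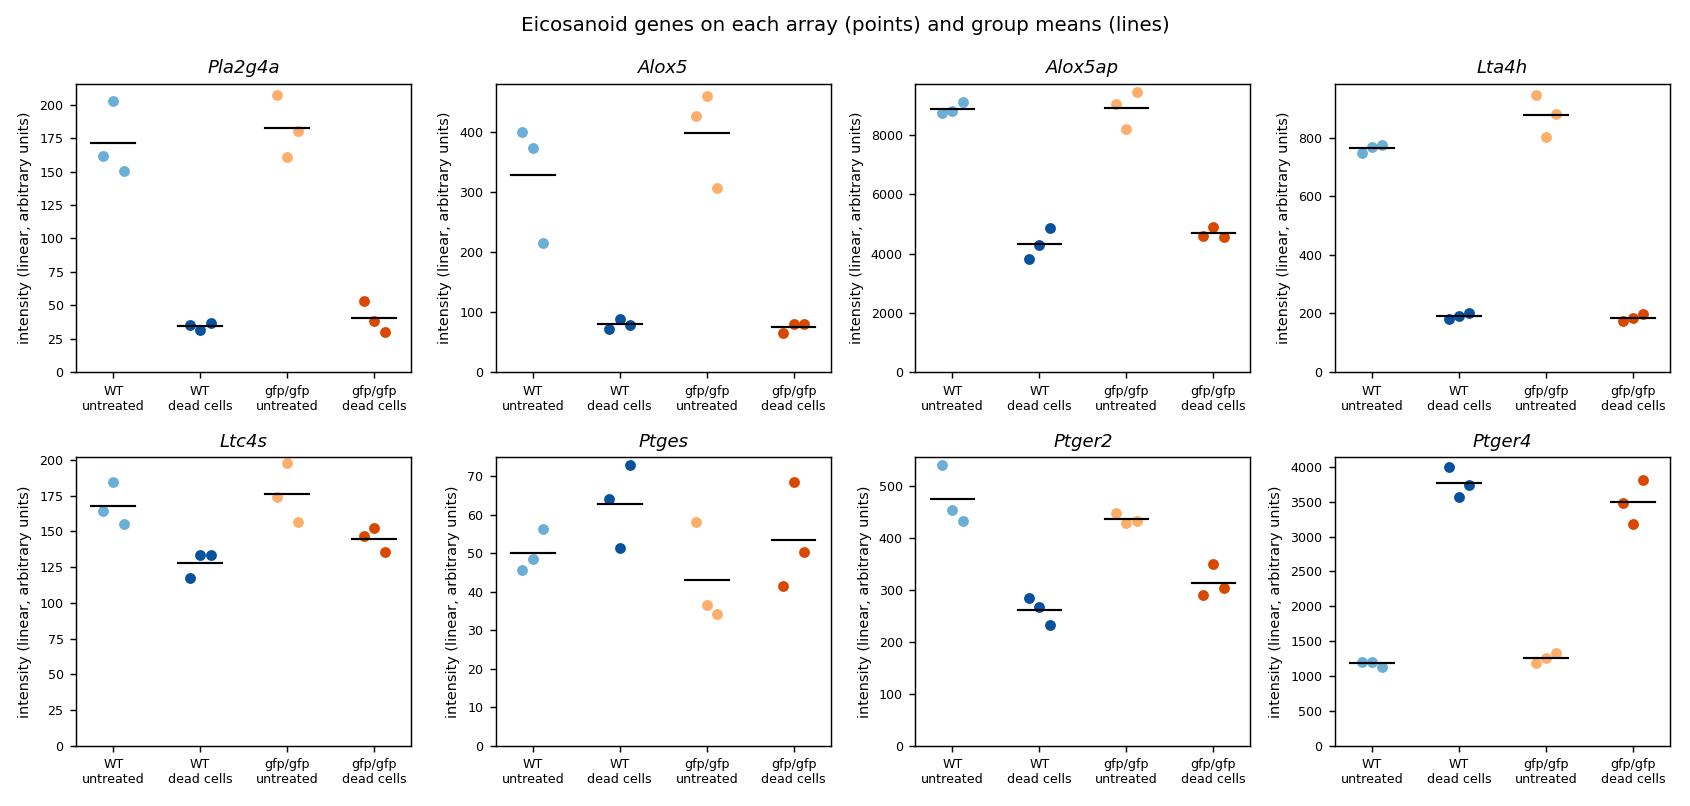
Linear intensity (arbitrary units) of each measured eicosanoid gene on each array; each point is 1 array, each line the mean of 3, and the groups are WT or Clec9a gfp/gfp, untreated or with dead cells. Pla2g4a, Alox5, Alox5ap, Lta4h, Ltc4s and Ptger2 were lower with dead cells in both genotypes with no overlap of the arrays, Ptger4 was higher with no overlap, and Ptges overlapped.

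Pla2g4a encodes cytosolic phospholipase A2, the enzyme that releases arachidonic acid for the whole pathway. Its intensity was 162, 203 and 150.4 on the 3 untreated WT arrays and 35.2, 31.3 and 37.0 with dead cells. The Clec9a gfp/gfp arrays gave 207, 161 and 180.2 untreated, then 53.2, 37.8 and 29.7 with dead cells. Every untreated array stood far above every array with dead cells, and the ranges of the genotypes overlapped in both treatments. The ratio of untreated to dead cell means was 4.98 in WT and 4.54 in Clec9a gfp/gfp cells. On the log2 scale the change was -1.89 ± 0.16 (SE, n = 3 per group, limma adjusted p = 1.88e-06) in WT and -1.84 ± 0.16 (limma adjusted p = 2.21e-06) in Clec9a gfp/gfp cells. With dead cells the values were low enough for the added 16 to understate the fall.

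Alox5 encodes 5-lipoxygenase, the first committed enzyme of leukotriene synthesis. It read 399, 373 and 215 on the untreated WT arrays and 72.1, 89.1 and 78.6 with dead cells. Without DNGR-1 it read 427, 461 and 307 untreated, against 64.8, 80.4 and 79.5 with dead cells. The untreated arrays were the more scattered, with replicate 3 the lowest in both genotypes, yet none came near the arrays with dead cells. Untreated means were 4.12 times those with dead cells in WT and 5.32 times in Clec9a gfp/gfp cells. The fit gave a log2 difference of -1.80 ± 0.22 (SE, limma adjusted p = 3.25e-05) in WT and -2.17 ± 0.22 (limma adjusted p = 6.82e-06) in Clec9a gfp/gfp cells.

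Alox5ap encodes the 5-lipoxygenase activating protein (FLAP), a membrane protein that presents arachidonic acid to the enzyme. Its intensity was 8745, 8803 and 9126 in untreated WT cells and 3816, 4305 and 4868 with dead cells. For Clec9a gfp/gfp the arrays read 9040, 8225 and 9460 untreated, and 4606, 4900 and 4568 with dead cells. The gene stayed bright on all 12 arrays, and no untreated array came near those with dead cells. The ratio of untreated to dead cell means was 2.05 in WT and 1.90 in Clec9a gfp/gfp cells. This was a log2 difference of -1.04 ± 0.10 (SE, limma adjusted p = 5.32e-06) in WT and -0.92 ± 0.10 (limma adjusted p = 1.38e-05) in Clec9a gfp/gfp cells.

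Lta4h encodes leukotriene A4 hydrolase, which makes the neutrophil attractant leukotriene B4. Its intensity was 750.1, 769 and 777 in untreated WT cells and 182, 190.2 and 202 with dead cells. Arrays of Clec9a gfp/gfp cells gave 947, 802 and 883 untreated, against 175, 183 and 198 with dead cells. The 3 arrays of each group lay close together, and the treatments were far apart. Its log2 difference was -1.91 ± 0.09 (SE, limma adjusted p = 2.29e-08) in WT and -2.15 ± 0.09 (limma adjusted p = 1.30e-08) in Clec9a gfp/gfp cells, and the untreated means were 3.99 and 4.73 times those with dead cells.

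Ltc4s encodes leukotriene C4 synthase, which joins leukotriene A4 to glutathione. It read 164, 185 and 155 in untreated WT cells and 117, 134 and 133 with dead cells. The Clec9a gfp/gfp values were 174, 198 and 156 untreated, then 147, 152 and 136 with dead cells. The arrays with dead cells were lower in both genotypes without overlap, but by a small margin. The log2 difference was -0.35 ± 0.11 (SE, limma adjusted p = 0.0177) in WT, and in Clec9a gfp/gfp cells it was -0.25 ± 0.11 (limma adjusted p = 0.0731), which did not pass. Under quantile normalization the differences were 0.12 in WT and 0.32 in Clec9a gfp/gfp cells, neither called, so the direction for Ltc4s was not settled by these arrays. The WT call was also lost without untreated WT replicate 2 (adjusted p = 0.0761) or without WT replicate 1 with dead cells (adjusted p = 0.0669).

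Ptges encodes the inducible microsomal prostaglandin E synthase, which makes prostaglandin E2 from the product of the cyclooxygenases. It was a dim row, at 45.6, 48.6 and 56.4 in untreated WT cells and 64.2, 51.4 and 73.0 with dead cells. Among Clec9a gfp/gfp arrays it was 58.2, 36.5 and 34.3 untreated, and 41.4, 68.6 and 50.4 with dead cells. The treatments overlapped in both genotypes. Its log2 difference was 0.25 ± 0.18 (SE, 95% interval -0.16 to 0.65, limma adjusted p = 0.312) in WT and 0.24 ± 0.18 (95% interval -0.16 to 0.65, limma adjusted p = 0.314) in Clec9a gfp/gfp cells. With the arrays shifted to one median, Ptges passed in both genotypes and its averaged difference was 0.47 (adjusted p = 0.00684), while quantile normalization gave 0.32 (adjusted p = 0.0571).

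**Figure D2:**
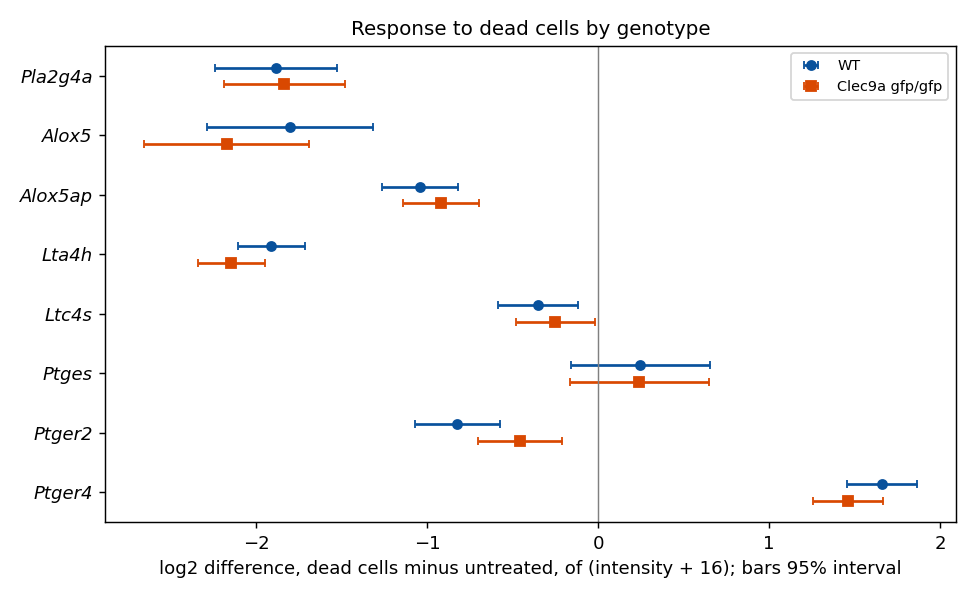
Log2 difference, dead cells minus untreated, of (intensity + 16) for each gene in WT (circles) and Clec9a gfp/gfp cells (squares); bars are 95% intervals of the limma fit over 12 arrays. Ptger4 stands at 1.66 and 1.46, Pla2g4a, Alox5, Alox5ap and Lta4h stand at -0.92 or lower, and each gene's interval in one genotype overlaps that in the other.

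Ptger2 and Ptger4 encode EP2 and EP4, the prostaglandin E2 receptors that couple to the stimulatory G protein. They share a second messenger, yet with the values as deposited Ptger4 rose and Ptger2 fell, the latter not after quantile normalization. The windows around their start sites are shown because these sister receptor genes parted, and that of Alox5 is shown for the leukotriene genes that fell. Each runs from 250 bases before to 50 bases after the start in RefSeq, on GRCm38.p6. This is not the build of the arrays (mm8, per the submitters' processing notes) and served only for sequences and gene names. The windows lie at chr15:5244138-5244437 (minus strand) for Ptger4, chr14:44987861-44988160 (plus strand) for Ptger2 and chr6:116461129-116461428 (minus strand) for Alox5. They are written 5′ to 3′ on the gene's strand, and capitals mark matches to GGGCGG, the core of the Sp1 site, on either strand.
Ptger4: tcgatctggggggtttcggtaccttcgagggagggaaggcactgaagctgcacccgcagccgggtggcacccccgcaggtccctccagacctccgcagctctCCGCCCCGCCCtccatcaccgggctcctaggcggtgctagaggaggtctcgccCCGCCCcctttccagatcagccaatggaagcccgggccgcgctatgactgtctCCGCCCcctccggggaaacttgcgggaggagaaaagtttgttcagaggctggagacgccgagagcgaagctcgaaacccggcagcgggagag
Ptger2: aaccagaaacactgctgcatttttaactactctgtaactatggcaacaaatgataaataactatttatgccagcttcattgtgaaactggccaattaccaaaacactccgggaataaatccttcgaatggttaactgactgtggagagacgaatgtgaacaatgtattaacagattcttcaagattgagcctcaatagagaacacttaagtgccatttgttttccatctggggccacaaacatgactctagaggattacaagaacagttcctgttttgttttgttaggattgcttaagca
Alox5: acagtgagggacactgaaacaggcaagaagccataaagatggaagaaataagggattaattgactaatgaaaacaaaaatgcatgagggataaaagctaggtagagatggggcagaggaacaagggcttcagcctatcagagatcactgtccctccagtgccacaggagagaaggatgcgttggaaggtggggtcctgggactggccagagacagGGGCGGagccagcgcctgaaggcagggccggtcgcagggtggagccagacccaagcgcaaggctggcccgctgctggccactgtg

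The Ptger4 window held 4 Sp1 matches, of which 2 overlap by a base and so form one unbroken stretch of capitals, and 67.0% of its bases were G or C. The Ptger2 window held none and was 37.7% G or C, and the Alox5 window held 1 match. Of the windows not printed, that of Ptges held 2 Sp1 matches, and those of Lta4h, Ltc4s and Pla2g4a held none. Across 32851 RefSeq windows of the same length, 35.7% had an Sp1 match and the median G and C content was 52.7%. Of the 8 measured genes 7 had a window, and Alox5ap had none in the table used. The other motifs searched on both strands were the CRE TGACGTCA (in 1.79% of all windows), the shorter CRE core TGACGTNN, which lies within it (7.49%), AP-1 TGANTCA (7.81%), the core of the ISRE (3.44%), GAS TTCNNNGAA (8.30%), the TATA box TATAAA (13.6%) and the NF-kB consensus (4.51%). Apart from Sp1, the members' windows matched only a TATA box in the second of the Pla2g4a windows. A match is only a run of letters, and a window without one says nothing of a factor's binding.

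Ptger4 read 1202, 1208 and 1133 in untreated WT cells and 3994, 3572 and 3746 with dead cells. With the gfp alleles it read 1188, 1257 and 1326 untreated, against 3486, 3179 and 3814 with dead cells. All 6 arrays with dead cells stood far above all 6 untreated ones. The means with dead cells were 3.19 times the untreated ones in WT and 2.78 times in Clec9a gfp/gfp cells. On the log2 scale this was 1.66 ± 0.09 (SE, limma adjusted p = 7.14e-08) in WT and 1.46 ± 0.09 (limma adjusted p = 1.75e-07) in Clec9a gfp/gfp cells. Of all rows, 1.76% in WT and 2.01% in Clec9a gfp/gfp cells had a higher difference.

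Ptger2 read 539.9, 454 and 433 in untreated WT cells and 284, 267 and 233 with dead cells. In cells without DNGR-1 it read 448, 429 and 432 untreated, then 290.2, 349 and 304 with dead cells. The arrays with dead cells were lower in each genotype, without overlap. The log2 difference was -0.82 ± 0.11 (SE, limma adjusted p = 8.11e-05) in WT and -0.46 ± 0.11 (limma adjusted p = 0.00547) in Clec9a gfp/gfp cells. This fall was not kept under every scaling. Quantile normalization gave -0.15 (adjusted p = 0.296) in WT and 0.27 (adjusted p = 0.0566) in Clec9a gfp/gfp cells, and the shift to one median gave -0.61 (adjusted p = 0.000535) and -0.22 (adjusted p = 0.09).

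**Figure D3:**
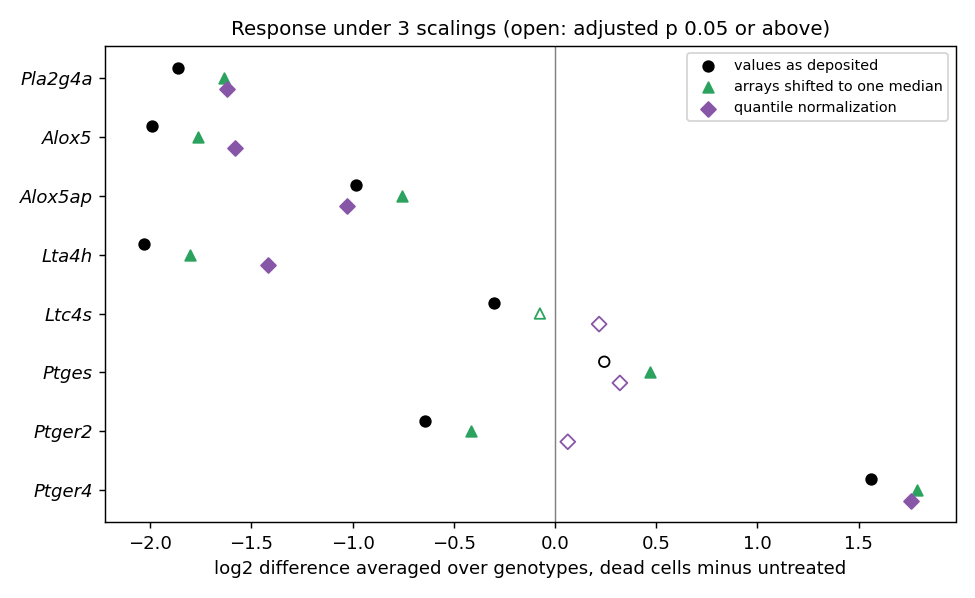
Log2 difference averaged over genotypes (dead cells minus untreated) for each gene with the values as deposited (circles), with the arrays shifted to one median (triangles) and after quantile normalization (diamonds); open symbols have an adjusted p of 0.05 or above. Ptger4 lies between 1.56 and 1.79, Pla2g4a, Alox5, Alox5ap and Lta4h lie below 0 throughout, and Ptger2 and Ltc4s cross to 0.063 and 0.22 after quantile normalization.

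The comparison of genotypes asks whether the loss of DNGR-1 changed these genes. None of the 8 was called between the genotypes in untreated cells, where 7 rows (0.0301%) were called over the whole array and 1044 had an unadjusted p under 0.05. Differences, Clec9a gfp/gfp minus WT, ran from -0.19 (Ptges) to 0.29 (Alox5), and no member had an unadjusted p under 0.05. Lta4h was 1 of the 8, and the only one, whose untreated arrays did not overlap between genotypes, at 802 to 947 against 750.1 to 777, beside 11.3% of all rows without such overlap. Its difference was 0.19 ± 0.09 (SE, 95% interval -0.0046 to 0.39).

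With dead cells, none of the 8 was called between the genotypes either, beside 1 row (0.0043%) called and 1308 with an unadjusted p under 0.05. Differences ran from -0.19 (Ptges) to 0.25 (Ptger2), and the lowest adjusted p was 0.872. Ptger2 and Ltc4s, 2 of the 8, had higher arrays in Clec9a gfp/gfp cells without overlap, beside 8.65% of all rows that did not overlap in either direction. For Ptger2 the ranges were 290.2 to 349 against 233 to 284, with a difference of 0.25 ± 0.11 (SE, 95% interval 0.0057 to 0.50). Ltc4s ranged from 136 to 152 against 117 to 134.

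The difference between the genotypes' responses was called for none of the 8 by limma, with 1 row (0.0043%) called over the array and 997 at an unadjusted p under 0.05. It ran from -0.37 for Alox5 (95% interval -1.05 to 0.31) to 0.37 for Ptger2 (95% interval 0.02 to 0.72, unadjusted p = 0.0413, adjusted p = 0.999). For Ptger4 it was -0.20 (95% interval -0.49 to 0.09). These p-values do not show that the genotypes responded alike.

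Beyond the members, 66 other genes of the pathway were listed and 53 were measured. In the averaged response 8 of these rose and 27 fell, beside 22.1% and 34.6% of all rows, and their median difference was -0.31 against -0.032 over all rows. With 1 row per gene, 10417 of 14807 genes were called in either direction in that response. The lead of falls over rises among the pathway genes depended on the scaling. After quantile normalization 19 rose and 25 fell (median -0.14 against 0.11 over all rows). After the shift to one median 21 rose and 23 fell (median -0.082 against 0.20). Between the genotypes none of the 53 was called in either treatment, with lowest adjusted p-values of 0.195 untreated and 0.663 with dead cells. The genes named below are the up to 4 with the smallest p in each list. Unless a sentence says otherwise, a pathway gene named as having risen or fallen also did so in both alternative scalings.

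Among 16 other genes of arachidonate release and remodelling, 3 rose and 7 fell, but 7 rose and 7 fell after quantile normalization, so the list had no settled balance. Pla2g15, a lysosomal phospholipase, had the largest fall of them, by 2.95 ± 0.10 (SE) on the log2 scale. Daglb, a diacylglycerol lipase, fell by 2.24 ± 0.09. Lpcat3 and Acsl4, which put arachidonic acid back into phospholipids, had differences of -1.51 ± 0.08 and -0.90 ± 0.06, both called lower.

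The prostanoid synthases downstream of cyclooxygenase had 1 gene higher and 4 lower of 8, and 3 higher and 4 lower after quantile normalization. Tbxas1, the thromboxane synthase, averaged 2823 ± 218 (SD, n = 3) on untreated WT arrays against 534 ± 45.2 with dead cells. Its averaged log2 difference was -2.39 ± 0.07 (SE). Ptges2, another prostaglandin E synthase, fell by 2.16 ± 0.08. Cbr1, a carbonyl reductase that converts prostaglandin E2 to F2α, fell by 2.24 ± 0.11, and Prxl2b, a prostamide and prostaglandin F synthase, fell by 1.01 ± 0.15.

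Genes of prostanoid transport and inactivation fell in 4 of 5 cases under all 3 scalings, and the other was called higher under both alternative scalings. Hpgd encodes the 15-hydroxyprostaglandin dehydrogenase that starts the breakdown of prostaglandin E2. It read 219 to 522 on untreated WT arrays and 10.7 to 21.1 with dead cells, and 391 to 527 against 12.3 to 20.3 in Clec9a gfp/gfp cells. Its averaged difference was -3.62 ± 0.19 (SE), the lowest of the 53 genes under all 3 scalings. Ptgr2 and Ptgr1, the reductases that act after it, had differences of -2.23 ± 0.09 and -2.17 ± 0.11, both called lower, and Cbr3, a carbonyl reductase, fell by 0.77 ± 0.13.

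Of the 7 other prostanoid receptors, 2 rose and 4 fell, and under the shift to one median 3 rose and 2 fell. Ptger3, the EP3 receptor that couples to the inhibitory G protein, went from 70.3 ± 6.26 (SD, n = 3) to 10.2 ± 2.13 in WT cells. In Clec9a gfp/gfp cells it went from 125 ± 22.2 to 15.6 ± 2.06, and its averaged log2 difference was -1.93 ± 0.09 (SE). Between the untreated genotypes Ptger3 differed by 0.70 ± 0.12 (SE, limma adjusted p = 0.195), which did not pass. Ptgdr2, a prostaglandin D2 receptor, fell by 0.85 ± 0.11. Ptgir, the prostacyclin receptor, rose by 0.59 ± 0.14, while Ptger1 (EP1) had a difference of -0.48 ± 0.12 that was called only with the values as deposited.

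The 6 other lipoxygenases, which oxidise arachidonic acid at other positions or act in skin, had 1 gene higher and none lower. Alox8 rose by 0.26 ± 0.08, and Alox12 did not pass at 0.11 (adjusted p = 0.2). After quantile normalization 4 of the 6 were higher, and after the shift to one median 5 were.

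Downstream of Ltc4s, 4 of 6 genes of leukotriene conjugation, export and inactivation fell and 1 rose, and 3 fell and 2 rose under both other scalings. Dpep2, a dipeptidase that converts leukotriene D4 to E4, fell by 1.76 ± 0.06, and its relative Dpep1 fell by 0.69 ± 0.08. Mgst3, a microsomal glutathione transferase, fell by 1.32 ± 0.13. Abcc1, the transporter that exports leukotriene C4, rose by 0.78 ± 0.08, from 1025 ± 91.9 (SD, n = 3) to 1791 ± 217 in WT cells.

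Of 5 leukotriene and other lipid mediator receptors, 4 fell under all 3 scalings and none rose. Cysltr1, a receptor for cysteinyl leukotrienes, went from 2094 ± 105 (SD, n = 3) to 188 ± 19.9 in WT cells and from 2012 ± 307 to 201 ± 27.2 in Clec9a gfp/gfp cells. Its averaged log2 difference was -3.30 ± 0.10 (SE). Cysltr2, its relative, fell by 0.53 ± 0.08, and Cmklr1, a receptor for chemerin and resolvin E1, fell by 1.53 ± 0.17. Gpr18 fell by 0.80 ± 0.15.

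**Figure D4:**
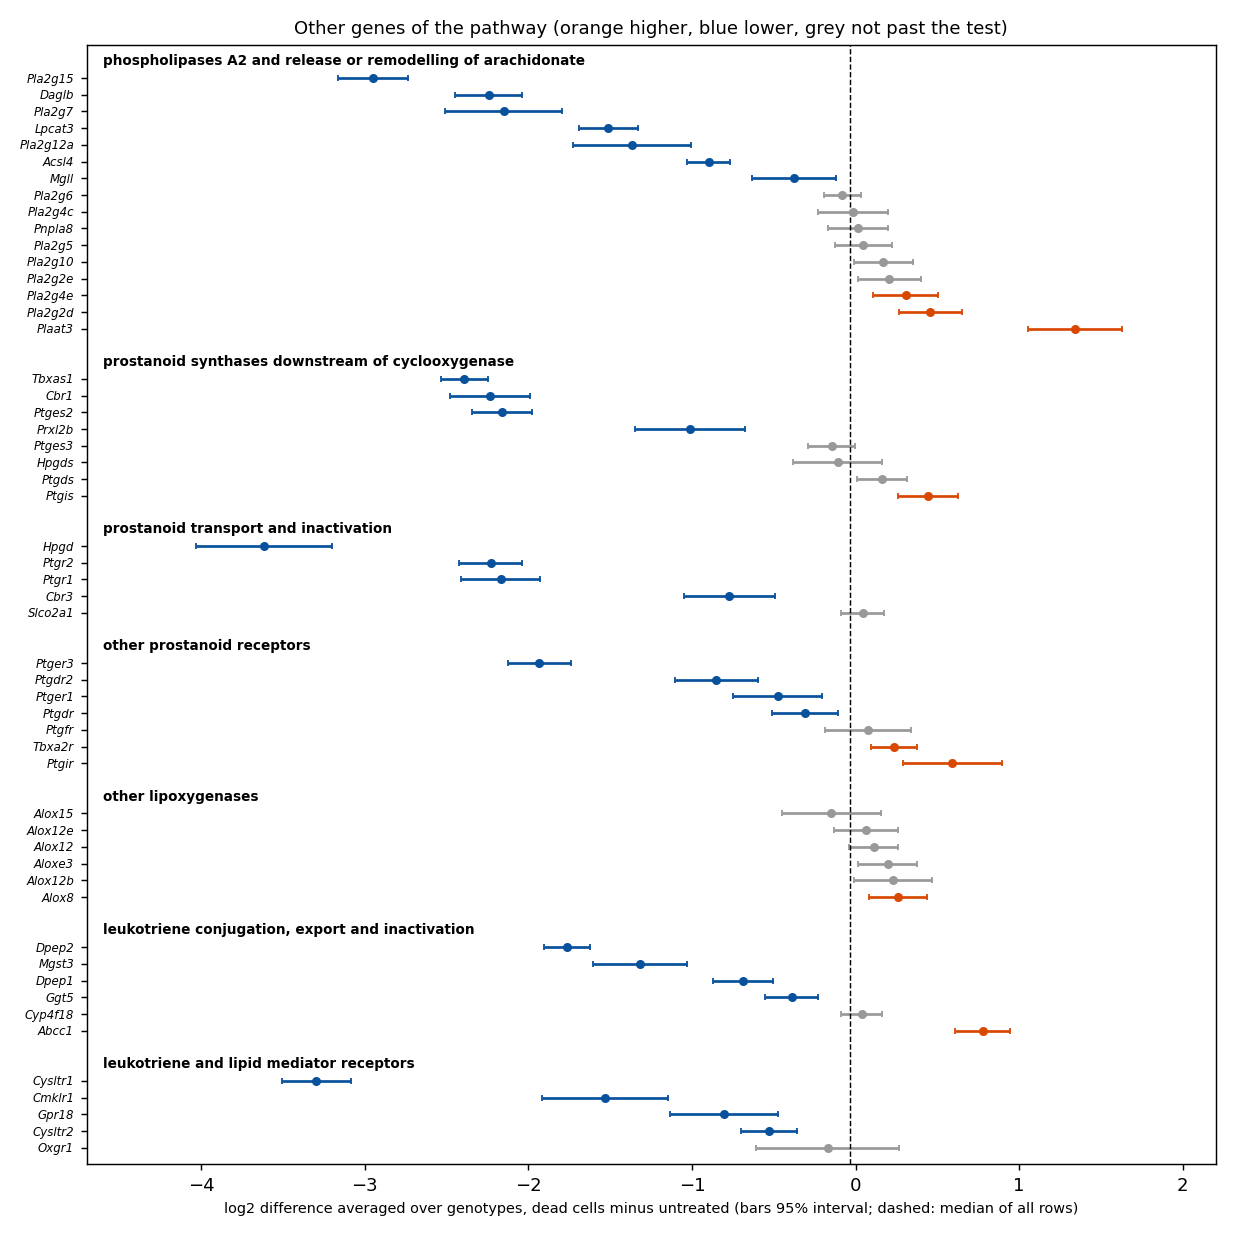
Averaged log2 difference (dead cells minus untreated) of the 53 other pathway genes by list, with 95% intervals; orange genes rose, blue genes fell and grey genes did not pass, and the dashed line is the median of all rows. Hpgd at -3.62 and Cysltr1 at -3.30 lie farthest to the left, and Abcc1 at 0.78 is among the few higher ones.

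Several members are also expressed by other myeloid cells of a bone marrow culture, and markers of those cells moved with the treatment. The sort on CD24hi CD11blow B220- cells selects against B220+ B cells and cells high in CD11b, such as most monocytes, macrophages and neutrophils. How fully it did so here was not tested. Itgam, which encodes CD11b, averaged 1161 in WT and 1543 in Clec9a gfp/gfp cells on untreated arrays, and 162 and 240 with dead cells. In bulk samples, fewer cells of a type and less RNA per cell cannot be told apart. The counts below are of the averaged response, in which 34.6% of all rows fell and 22.1% rose as deposited. These shares were 26.9% and 34.3% after quantile normalization, and 29.4% and 39.8% after the shift to one median. With 1 row per gene, 10417 of 14807 genes were called in either direction. The monocyte and macrophage list fell in 11 of 11 genes in the averaged response and in 10 of 11 after quantile normalization. Its summed intensity was 15779 to 23131 on untreated arrays and 3415 to 4248 with dead cells. The mast cell, basophil and eosinophil list summed to 3719 to 5213 and 1260 to 1471, with 7 of 12 genes lower and 1 higher (Hdc), and 7 lower and 5 higher after the shift to one median. Its mast cell and basophil protease Cpa3 went from 289 to 1042 down to 5.03 to 12.3. The neutrophil list summed to 1288 to 20686 untreated and 580 to 809 with dead cells, with 5 of 8 lower as deposited and 4 lower and 2 higher after quantile normalization. In no list did a sum of the untreated arrays overlap that with dead cells among these 3, and no gene of the 3 lists was below the lower quartile on every array. The sums are of intensities as deposited and were not taken under the other scalings. The plasmacytoid dendritic cell sum was higher with dead cells, at 3667 to 3968 against 1855 to 2400 untreated. The T and NK cell sum overlapped, and the sums of the remaining lists of other cells were lower with dead cells without overlap. Of the other lists, 5 of 7 CD11b+ dendritic cell genes fell and 1 rose as deposited, against 4 and 2 under both other scalings. Of 8 fibroblast and stromal genes 6 fell under all 3 scalings, with 1 higher after quantile normalization and 2 after the shift to one median. Of 5 B cell genes 4 fell as deposited but 2 under both others. Among 6 platelet genes 2 fell as deposited and 1 under both others, with 1 higher throughout. Among 5 plasmacytoid dendritic cell genes 2 fell and 2 rose, against 1 and 3 after quantile normalization, and among 5 T and NK cell genes 1 fell and 3 rose throughout. Across the 6 untreated arrays, Alox5 and the mast cell, basophil and eosinophil sum had the same order apart from the 2 highest arrays. Both were lowest in WT replicate 3 (215 and 3719). Single genes of that list did not share 1 order at the top. Cpa3 was highest in WT replicate 1 (1042), where Alox5 ranked 3. Kit was highest in Clec9a gfp/gfp replicate 1 (3108), where Alox5 ranked 2, and Mcpt8 in replicate 2 (355), where Alox5 ranked 1. The order was not compared with Kit, the largest part of the sum, left out. The monocyte and macrophage sum was highest in WT replicate 2, where Alox5 ranked 4. The neutrophil sum was lowest in Clec9a gfp/gfp replicate 2, where Alox5 was highest. Only Alox5 was set beside these sums array by array. On untreated WT arrays, Lta4h (777) and Alox5ap (9126) were highest in replicate 3, where Pla2g4a (150.4) was lowest. The part of these cells in the order of Alox5, and in the falls of Alox5, Alox5ap, Lta4h and Pla2g4a, was not tested.

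The labelled cell type was checked by its own markers, of which 7 of 9 measured were lower with dead cells under all 3 scalings. The cDC1 list, named for the conventional dendritic cell that CD8α+-like cells stand for, summed to 38076 to 42456 untreated and 13893 to 15003 with dead cells over the 8 genes other than the targeted Clec9a. In WT cells the mean of Flt3 went from 5046 untreated to 1205 with dead cells, that of Irf8 from 8822 to 3783 and that of Itgae from 2588 to 640. Xcr1, a chemokine receptor that marks these cells, had an averaged difference of -0.49, while Cadm1 (0.12) and Zbtb46 (-0.15) did not pass as deposited. Both were called higher after quantile normalization (0.32 and 0.27), and Cadm1 was also higher after the shift to one median (0.35).

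Some of these sums rest largely on 1 gene. The calprotectin gene S100a8 ran from 310.2 to 19200 on untreated arrays, and without it the other 7 neutrophil genes summed to 740.4 to 1486 untreated and 312 to 470 with dead cells. The growth factor receptor gene Kit made up 2554 to 3108 of the mast cell, basophil and eosinophil sum on untreated arrays, and without it the other 11 summed to 1165 to 2341 untreated and 505 to 675 with dead cells. Both sums were thus lower with dead cells without these genes too, and with no overlap.

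**Figure D5:**
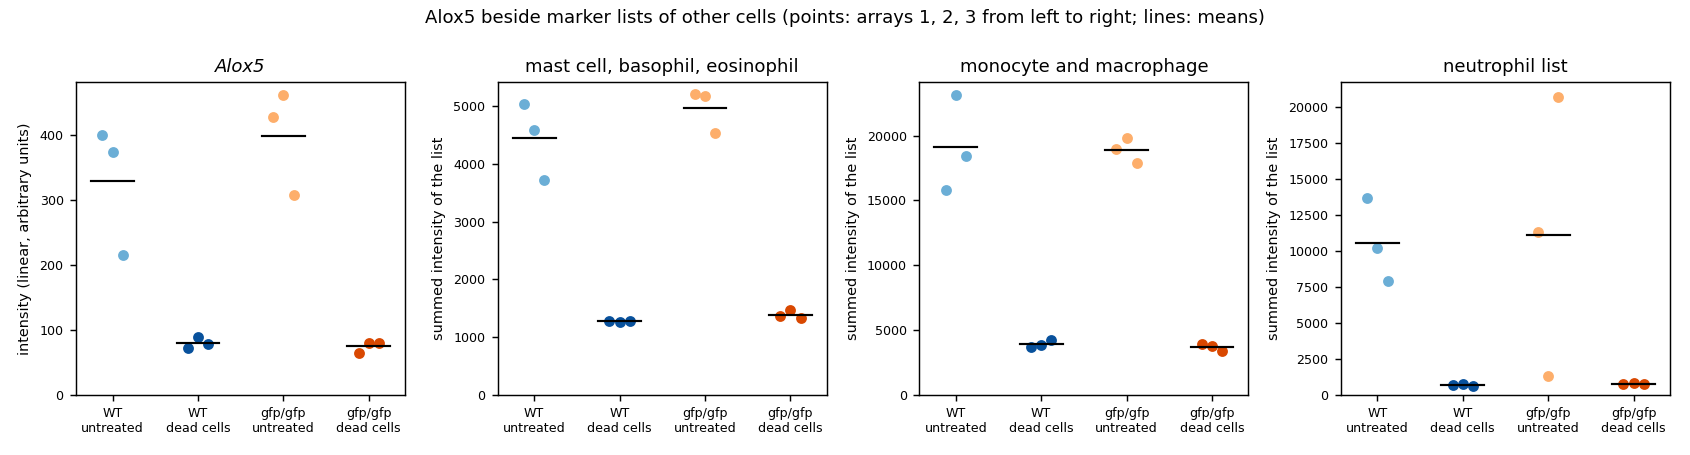
Alox5 intensity and the summed intensity of 3 marker lists of other cells (arbitrary units) on each array, with points for replicates 1, 2 and 3 from left to right and lines for group means. All 4 panels fall with dead cells, and the neutrophil sum, which runs from 1288 to 20686 among untreated arrays, is the most scattered.

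The members were compared with each other and with other genes by their likeness over the 12 arrays. Likeness was measured as the root mean square difference of log2(intensity + 16), each gene centred on its own mean over the 12 arrays, which mostly reflects the treatment. The most alike pair of members was Lta4h and Pla2g4a (0.21), followed by Ltc4s and Ptger2 (0.23). Outside the members, Ptger4 was most like Fbxw11 (0.0662), Gramd1a (0.0664) and Crtc2 (0.0674). Lta4h was most like Parl (0.0697), Cnbp (0.0720) and Cmtm7 (0.0780). Alox5ap was closest to Ppp3ca (0.0772), Rpn2 (0.0797) and Snx14 (0.0839), and Pla2g4a to Cep164 (0.121), Slc16a10 (0.142) and Mccc2 (0.144). Alox5 had no neighbour nearer than Cyp11a1 (0.179), Eps8 (0.183) and Rasgrp4 (0.192). Ptger2 lay nearest to Pik3r6 (0.105), Ddb2 (0.106) and Fkbp5 (0.1096), and Ltc4s to Pif1 (0.0838), Trpv4 (0.0855) and Foxo4 (0.0932).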

How the data were processed

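RNA of 12 sorted samples was measured, 1 array each. The deposited values are 1 linear intensity per row, with the scale read from the values. Per the labels' protocols, RNA was treated with DNase on columns and given a biotin label in a whole-transcript protocol. The submitters' processing notes name mm8. How probes were summarised, corrected for background and normalized was not given in the sources used here, and array medians differed between treatments. Detection calls and scan dates were not used, so no batch was tested. The number of arrays limits the precision, since arrays have no depth.

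Gene names came from the platform's gene table and were updated by gene ID to RefSeq (GRCm38.p6). Of 23238 rows, 14939 had 1 symbol (14884 matched to RefSeq), 989 several, and 7310 were not listed. The brightest row stood for a gene.

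Intensities were taken as log2(value + 16), which understates changes of dim genes. Rows below 16 made up 11.5% to 15.2% of an array. All arrays entered 1 limma 3.58.1 fit (R 4.3.3, a mean per group, lmFit and eBayes), with Benjamini-Hochberg adjustment over all rows and calls under 0.05. Treatment differences are dead cells minus untreated, genotype differences Clec9a gfp/gfp minus WT. The fit was also run on simulated arrays with known shifts in some rows of 1 group. Those arrays did not differ in scale, so that run says nothing of the scaling.

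Members, lists and motifs were chosen with earlier results of these data known. The genes named were all members, Clec9a, up to 4 genes of each pathway list with the smallest p, and 3 most like genes for each called member. Marker genes named beside a list, and individual marker lists, were picked after their values were seen. Alternatives were other pseudocounts, 2 scalings, a filter on dim rows, 1 row per gene, a trended variance, a replicate block and leaving out each array.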

Additional observations from a re-analysis of the deposited data

How the results depend on the processing

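Calls and directions of Pla2g4a, Alox5, Alox5ap, Lta4h and Ptger4 in the response to dead cells, in each genotype and averaged, held under every alternative run. Quantile normalization turned Ltc4s (0.12 in WT, 0.32 in Clec9a gfp/gfp, 0.22 averaged) and Ptger2 (0.27 in Clec9a gfp/gfp, 0.063 averaged). With the arrays shifted to one median, 2 members were higher in WT, in Clec9a gfp/gfp and averaged, the added one being Ptges. Ltc4s in Clec9a gfp/gfp cells passed with 1 row per gene (adjusted p = 0.0476), without the dimmest 25% of rows (0.0494) and without untreated Clec9a gfp/gfp replicate 3 (0.0385). Leaving out each array in turn, 1 to 2 members were higher in the averaged response, 2 only without untreated Clec9a gfp/gfp replicate 1 (Ptges, adjusted p = 0.0348), and 5 to 6 were lower in each genotype. Small uncalled values changed sign. The Ptges difference in response was 0.011 without a pseudocount, 0.0090 with a pseudocount of 1 and 0.010 with arrays at one median, against -0.0059 as reported, and ran from -0.16 to 0.17 when an array was left out. The Pla2g4a difference in response ran from -0.11 to 0.19. Genotype differences without dead cells ran from -0.044 to 0.057 for Alox5ap, from -0.021 to 0.13 for Ltc4s and from -0.00032 to 0.20 for Pla2g4a, and with dead cells from -0.14 to 0.0046 for Alox5 and from -0.024 to 0.28 for Pla2g4a. Rows called between genotypes were few and unsteady, at 2 to 9 without dead cells (7 in the fit reported), 1 to 3 with dead cells (1) and 0 to 2 for the difference in response (1) when an array was left out. The arrays did not show a pairing of samples by replicate number. Deviations of same-numbered arrays correlated at -0.164 to 0.133 (median 0.00197, 2 of 18 pairs over 0.1), and 3 of 12 arrays correlated best with their own number. With 3 arrays per group these correlations cannot exclude a pairing. With the replicate as a block, 10282 rows were called in WT, 11014 in Clec9a gfp/gfp cells and 12940 averaged, 3 between untreated genotypes and 0 for the difference in response, and no member's call changed. The causes of these changes were not tested.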
